A study of Homo sapiens with 6 samples.

Results

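The claudin 3 and 4 locus on chromosome 7 holds 4 protein-coding genes, CLDN3, CLDN4, METTL27 and ABHD11, and a copy of the SVA_D retrotransposon that lies 1416 bases from the 5′ end of CLDN4. The genes are 4 of the 19986 in the deposited gene table, and the copy, SVA_D_dup602, is 1 of 1546 SVA_D copies counted separately. CLDN4 was chosen by its higher level with the SVA_D guide in these libraries; the other members were chosen for their position beside it. The difference of CLDN4 between cells with and without the guide is therefore a description here, carries no test and supports nothing.

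Claudins are four-pass membrane proteins that join neighbouring epithelial cells in tight junctions and set which ions pass between the cells. CLDN3 and CLDN4 are close paralogs with few or no introns in their coding parts, are typical of simple epithelia, and serve as receptors of the Clostridium perfringens enterotoxin. ABHD11 is a mitochondrial hydrolase that protects the lipoyl groups of 2-oxoacid dehydrogenases, and METTL27 is a predicted methyltransferase of poorly known function. SVA elements are composite retrotransposons of apes and humans that hold GC-rich tandem repeats, and SVA_D is a large subfamily of them.

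The cells were HEK293T, a transformed human embryonic kidney line, in 6 libraries of total RNA. The 3 libraries with guide carry dCas9-VP64, an inactive Cas9 fused to a transcriptional activator, rtTA, a doxycycline-dependent transactivator, and a guide RNA against SVA_D, and their genotype is given as CRISPRa. The 3 libraries without guide carry dCas9-VP64 and rtTA, have the genotype WT, and hold no guide RNA in place of the SVA_D guide; the titles of both groups name SunTag. Nothing in the labels says that replicates were separate cultures, so p-values reflect how these libraries vary, and that variation may be technical.

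Gene totals ran from 16557854 to 22651168 read pairs and SVA_D copy totals from 2608 to 4553. Replicate 3 of each group stood apart from replicates 1 and 2, and the file headers name its alignments in another way. Of 13007 genes tested between replicate 3 and replicates 1 and 2, 27.1% were higher and 26.6% lower by edgeR's quasi-likelihood test with Benjamini-Hochberg adjustment, that is 3530 and 3454 genes, or 5317 and 1759 without TMM scaling of the library sizes. The guide differences of CLDN4, METTL27 and ABHD11 are therefore also given within replicates 1 and 2 and within replicate 3; those of other genes and of the copies are over all 6 libraries. Of the marker lists, kidney development genes summed to 253.6 to 288.4 counts per 1000000 (CPM) with guide and 264.9 to 281.1 without; 9 of 10 passed the count filter. Epithelial markers summed to 72.1 to 88.7 CPM with guide and 71.4 to 84.8 without, mostly from the keratins KRT8 and KRT18; 4 of 10 passed the filter and KRT19 was at 0 in all libraries. Neuronal markers, which this line is known to express, summed to 480.8 to 650.4 CPM with guide and 510.1 to 646.1 without; 5 of 10 passed. Blood markers summed to 2.55 to 4.28 CPM with guide and 1.59 to 3.38 without, with 1 of 9 past the filter. Fibroblast markers summed to 3.28 to 22.8 CPM with guide and 2.34 to 23.6 without, with 2 of 9 past the filter.

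In GRCh38 coordinates the locus runs along chromosome 7 from ABHD11 (ENSG00000106077, 73736094 to 73738867, minus strand) through CLDN3 (ENSG00000165215, 73768997 to 73770270, minus strand), the SVA_D copy (73796619 to 73798125, minus strand) and CLDN4 (ENSG00000189143, 73799542 to 73832693, plus strand) to METTL27 (ENSG00000165171, 73834590 to 73842516, minus strand). The copy is 1507 bases long, against a median of 1461 bases over all SVA_D copies, and overlaps no annotated gene. It and CLDN4 point away from each other, with their 5′ ends 1417 bases apart, whereas CLDN4 and METTL27 point towards each other with 1896 bases between their 3′ ends. CLDN3 lies 26348 bases beyond the 3′ end of the copy, and a further 30129 bases separate CLDN3 from ABHD11. Only 1 other annotated SVA_D piece lies within 500 kb, a fragment of 22 bases, SVA_D_dup601, with 0 counts in all 6 libraries.

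The closeness of the copy to CLDN4 depends on which start is meant. GENCODE 29 gives CLDN4 5 transcripts with 5 starts. The start 1417 bases from the copy belongs to a single processed transcript, which is not annotated as coding. The 3 protein-coding transcripts start 29619, 30049 and 32738 bases from the copy. By these starts CLDN3, whose start is 26349 bases away, is nearer to the copy than any coding form of CLDN4, and the METTL27 and ABHD11 starts are 44391 and 57752 bases away.

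**Figure D1:**
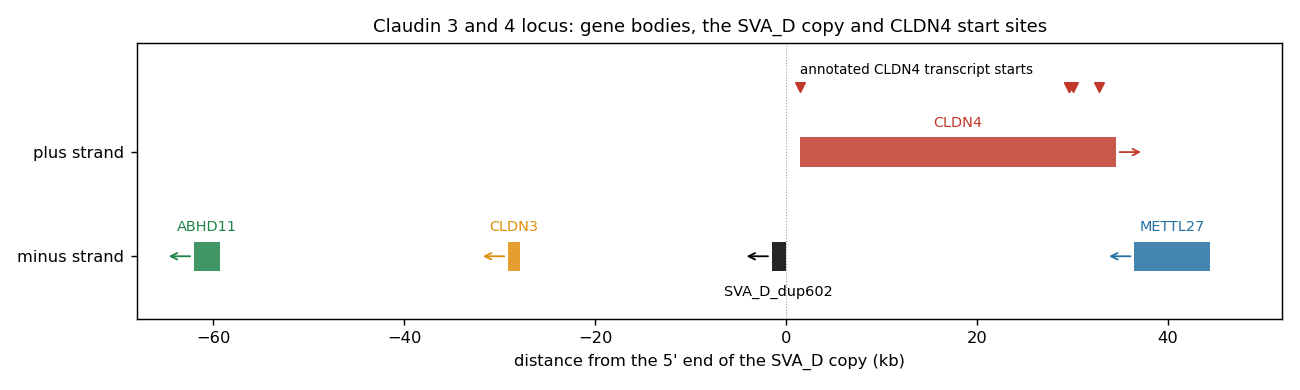
Map of the locus, with distance from the 5′ end of the SVA_D copy in kb on the x axis and the strand on the y axis; boxes are gene bodies or the copy, arrows the direction of transcription and triangles the annotated CLDN4 starts. The copy and the long CLDN4 gene body are head to head, and all CLDN4 starts but the 1 at 1417 bases gather near its far end.

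The promoters are shown because they are what the 4 genes have in place of the copy at their starts: none of the windows reaches it. Each is the 250 bases before the RefSeq start site (GRCh38.p14), 5′ to 3′ on the gene's strand; capitals mark 3 short motifs on either strand. GGGCGG is the core of the GC box to which the Sp transcription factors bind. TATAA is the core of the TATA box, from which the general transcription machinery is placed. CCAAT is the box that the NF-Y factor is known to recognise. All 4 genes matched an entry. They lie at chr7:73830746-73830995 for CLDN4, chr7:73770271-73770520 for CLDN3, chr7:73842517-73842766 for METTL27 and chr7:73738803-73739052 for ABHD11.
CLDN4: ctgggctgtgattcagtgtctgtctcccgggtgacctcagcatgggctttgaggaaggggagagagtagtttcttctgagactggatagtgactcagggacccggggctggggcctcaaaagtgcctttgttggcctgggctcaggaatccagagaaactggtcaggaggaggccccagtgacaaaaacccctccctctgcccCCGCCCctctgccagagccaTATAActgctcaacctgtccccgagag
CLDN3: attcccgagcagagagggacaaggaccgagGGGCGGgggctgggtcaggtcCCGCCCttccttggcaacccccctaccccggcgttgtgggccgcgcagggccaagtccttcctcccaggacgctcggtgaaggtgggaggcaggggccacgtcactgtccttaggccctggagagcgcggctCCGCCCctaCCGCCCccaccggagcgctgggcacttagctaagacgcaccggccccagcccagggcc
METTL27: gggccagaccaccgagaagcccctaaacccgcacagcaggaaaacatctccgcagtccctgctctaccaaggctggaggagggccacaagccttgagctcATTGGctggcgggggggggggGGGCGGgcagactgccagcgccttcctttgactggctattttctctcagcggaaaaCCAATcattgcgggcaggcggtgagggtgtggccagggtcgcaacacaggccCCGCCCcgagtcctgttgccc
ABHD11: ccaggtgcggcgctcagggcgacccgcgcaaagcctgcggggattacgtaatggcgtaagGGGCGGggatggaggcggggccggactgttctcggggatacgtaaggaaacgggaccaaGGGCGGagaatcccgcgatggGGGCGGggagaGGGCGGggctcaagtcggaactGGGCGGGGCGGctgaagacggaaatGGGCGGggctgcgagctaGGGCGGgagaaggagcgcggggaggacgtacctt

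The CLDN4 promoter differs in composition from the others. It is 58.8% G and C with 4 CpG sites, against 71.6% and 19 for CLDN3, 64.8% and 12 for METTL27 and 69.2% and 29 for ABHD11; over 35116 RefSeq promoters the medians are 58% and 11. It is the only promoter of the 4 with a TATAA match, a string found in 18.93% of all promoters. GGGCGG occurs in all 4, with 1 match in CLDN4, 2 in METTL27, 4 in CLDN3 and 8 in ABHD11, of which a neighbouring pair shares a base, and in 42.64% of all promoters. CCAAT occurs only in METTL27, with 2 matches, and in 32.01% of all promoters. The string CCCTCT, the hexamer repeated at the 5′ end of SVA elements, was also counted on either strand. It has 2 matches in the CLDN4 promoter, both on the strand shown, and 1 of them overlaps the GC-box match. It has 1 match each in CLDN3 and ABHD11 and 0 in METTL27, and is present in 25.26% of all promoters. The RefSeq start of CLDN4 is 32871 bases from the copy. A match is a description of these letters and not of bound factors.

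The members spanned a wide range of levels in these cells. Per kb of gene body and over all 6 libraries, the mean level was 7.43 CPM for ABHD11, with a range of 4.95 to 9.44. METTL27 followed at 0.240 CPM per kb of gene body, ranging from 0.131 to 0.373. CLDN4 had 0.0364 CPM per kb of gene body with a range of 0.0129 to 0.0746, and CLDN3 0.0302 with a range of 0 to 0.147. The ranges of ABHD11, METTL27 and CLDN4 did not overlap one another, whereas those of CLDN4 and CLDN3 did. Gene bodies were counted with their introns, and exons make up 14.18% of the CLDN4 body against 100% of CLDN3. The same whole-body counts divided by exon length gave 0.257 CPM per kb for CLDN4, 1.31 for METTL27 and 9.005 for ABHD11. These are upper limits for the exons, since pairs from introns are included. Only 0.4819 CPM was needed in 3 libraries to be tested: ABHD11 and METTL27 reached it in 6 of 6 libraries, CLDN4 in 5 of 6, namely 3 with guide and 2 without, and CLDN3 in 0. So 3 of the 4 genes were tested, and CLDN4 passed with the help of the group in which it is high.

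CLDN4 was present at a low level that was higher in the libraries with guide. Its counts cover the whole gene body without strand. Pairs of the coding transcripts and of the processed transcript that starts near the copy cannot be told apart in them. With guide it had 23, 21 and 56 counts in replicates 1, 2 and 3, which are 1.13, 1.31 and 2.47 CPM. Without guide it had 15, 7 and 28 counts, or 0.715, 0.428 and 1.199 CPM. The groups overlapped only in that replicate 1 with guide was below replicate 3 without; CLDN4 was higher with guide in 3 of 3 same-numbered pairs and in 8 of 9 pairs of libraries. The means were 1.64 ± 0.731 CPM (SD, n = 3) and 0.781 ± 0.389 CPM (SD, n = 3).

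The log2 difference of CLDN4 between guide and no guide was 1.05 (SE 0.51), and 1.04 (SE 0.32) with the replicate 3 libraries as a covariate. It was 1.09 within replicates 1 and 2 and 1.05 within replicate 3 as the log2 ratio of mean CPM. Over the summed counts, 100 with guide and 50 without, the ratio of levels was 2.052 with an exact 95% interval of 1.45 to 2.94, which covers counting error only. Of all 13007 tested genes, 24 (0.185%), CLDN4 among them, had a log2 difference at least as large. CLDN4 was chosen by this difference, so neither this share nor the interval supports it. Leaving out single libraries moved the value between 0.61, without replicate 3 with guide, and 1.497. In each set of libraries taken alone, replicates 1 and 2 or replicate 3, CLDN4 with guide lay above CLDN4 without; this held for 1 of the 4 genes and for 8.8% of all genes tested. A gene with guide below no guide in each set, seen in 7.37% of all genes tested, was not among the members (0 of 4). Guide above no guide over all 6 libraries at once, seen in 1.69% of all genes tested, was reached by 0 of the 3 tested members.

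CLDN3, the paralog on the other side of the copy, was at the limit of detection. It had 0, 3 and 1 counts with guide and 0, 0 and 0 counts without. A count of 0 allows up to 3 counts in a library, which is 0.128 to 0.187 CPM here, and every library was at or under that limit. No fold is given, since 4 counts against 0 cannot be read as a difference at this depth.

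METTL27, at the 3′ side of CLDN4, showed no such separation of the groups. It had 32, 30 and 48 counts with guide, or 1.57, 1.87 and 2.12 CPM. Without guide it had 39, 17 and 69 counts, or 1.86, 1.04 and 2.95 CPM. The libraries with guide lay inside the range of those without, at 1.85 ± 0.277 against 1.95 ± 0.960 CPM (SD, n = 3 each). The log2 difference was -0.08 (SE 0.43), with 0.24 within replicates 1 and 2 and -0.48 within replicate 3, so its sign differed between the sets of libraries. The summed counts, 110 and 125, gave a ratio of 0.903 with a 95% interval of 0.692 to 1.18 for counting error.

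ABHD11, the most abundant member, was close between the groups. It had 412, 367 and 359 counts with guide, or 20.2, 22.9 and 15.9 CPM, and 549, 407 and 321 without, or 26.2, 24.9 and 13.7 CPM. The groups overlapped, at 19.6 ± 3.53 and 21.6 ± 6.84 CPM (SD, n = 3 each), and in each group replicate 3 was the lowest. The log2 difference was -0.14 (SE 0.27), with -0.25 within replicates 1 and 2 and 0.21 within replicate 3. The counting interval of the ratio of levels, 0.843 to 0.991 around 0.914, is narrower than the spread between libraries. Reads of ABHD11 and of ABHD11-AS1, which overlaps it by 65 bases on the other strand, cannot be told apart in counts made without strand.

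The SVA_D copy itself was nearly silent in the counts. It had 1, 0 and 2 counts with guide and 0 counts in each library without, all within the limit of 3 counts. It was too low to be tested among the 63 tested copies. Of those 63 copies, 17.5% (11) were higher with guide and 0.0% lower by edgeR's quasi-likelihood test; the 11 had 38 to 134 counts each over the 6 libraries. A copy with so few counts is common, with a median of 2 counts over the 1546 copies and 486 copies at 0 in every library. Exactly 3 counts with guide and 0 without was seen in 31 copies, and the reverse in 10. Read pairs that align to several copies were counted at each of them, so even these 3 counts can come from other copies.

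The copy and its neighbours were not seen to move together with the guide. None of the 3 tested genes (0 of 3) passed the adjusted threshold, against 0.0% of all 13007 genes in either direction, and nothing is read from that share because the contrast chose CLDN4. At unadjusted p below 0.05, edgeR found 19 genes up and 4 down with the guide, or 347 and 140 with the replicate 3 libraries as a covariate. CLDN4 was higher with guide in both sets of libraries, METTL27 and ABHD11 each had opposite signs in them, and CLDN3 and the copy were too low to compare.

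CLDN4 and METTL27 lie tail to tail and have like totals, so their counts can be set against each other within a library, where scaling drops out. CLDN4 gave 41.8%, 41.2% and 53.8% of the counts of both genes in replicates 1, 2 and 3 with guide. It gave 27.8%, 29.2% and 28.9% in replicates 1, 2 and 3 without. The groups did not overlap, although single libraries have wide exact 95% binomial intervals, such as 28.6 to 55.9% for replicate 1 with guide and 12.6 to 51.1% for replicate 2 without. This share was chosen after the values were seen and carries the CLDN4 difference that chose the gene. Of the 13006 tested genes other than METTL27, CLDN4 among them, 0.277% separated the groups upwards when set against METTL27 in the same way.

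The contrast of replicate 3 with replicates 1 and 2 did not choose the members and can be tested. CLDN4 rose and ABHD11 fell in replicate 3. CLDN4 averaged 1.84 CPM in replicate 3 and 0.894 CPM in replicates 1 and 2, a log2 difference of 1.03 (SE 0.31, adjusted p = 0.0124 by edgeR's quasi-likelihood test with Benjamini-Hochberg adjustment). ABHD11 averaged 14.8 against 23.5 CPM, a log2 difference of -0.66 (SE 0.12, adjusted p = 0.000629 by the same edgeR test). METTL27 averaged 2.54 against 1.58 CPM, and its log2 difference of 0.67 (SE 0.29) missed the threshold with an adjusted p of 0.0632 in edgeR. So 1 of 3 tested members was higher, against 27.1% of all genes, and 1 was lower, against 26.6%.

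The CLDN4 call rests on both replicate 3 libraries: its edgeR adjusted p was 0.132 without replicate 3 with guide and 0.0605 without replicate 3 without guide, at log2 differences of 1.02 and 1.03. Other genes moved with the same libraries. Of the 4 tested epithelial markers, 3 were higher in replicate 3 and 1 lower, against 27.1% and 26.6% of all genes. CDH1, the adhesion protein E-cadherin, was higher in replicate 3 by a log2 of 1.97 (edgeR adjusted p = 9.08e-06) EPCAM by 0.90 (edgeR adjusted p = 0.00319) and the keratin KRT8 by 0.56 (edgeR adjusted p = 0.000326), whereas the keratin KRT18 was lower by a log2 of -0.69 (edgeR adjusted p = 0.000711). The summed epithelial markers overlapped, at 72.1 to 84.8 CPM in replicates 1 and 2 and 71.4 to 88.7 in replicate 3. Fibroblast markers summed to 2.34 to 4.73 CPM in replicates 1 and 2 and 22.8 to 23.6 in replicate 3, and neuronal markers to 480.8 to 513.3 and 646.1 to 650.4. By the same edgeR test, 1 of 2 tested fibroblast markers was higher and 0 lower, and 2 of 5 neuronal markers were higher and 1 lower. NEFM rose by a log2 of 0.85 and NEFL by 0.50, whereas INA had -1.12, and the median of the 5 was -0.05. The part of these marker genes in the CLDN4 and ABHD11 differences was not tested. A change in the mix of cells and a change per cell cannot be told apart in bulk RNA.

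Whether the guide difference itself changed between the sets of libraries was tested by an interaction term. For CLDN4 the guide difference in replicate 3 minus that in replicates 1 and 2 was 0.0037 on the log2 scale, with an SE of 0.66 (edgeR adjusted p = 0.9999). For METTL27 it was -0.68 (SE 0.56, edgeR adjusted p = 0.755), and for ABHD11 0.46 (SE 0.22, edgeR adjusted p = 0.638). None of the 3 passed, as none of all genes did (0.0% in either direction, while edgeR found 524 above and 508 below 0 with unadjusted p below 0.05). The SEs of CLDN4 and METTL27 are wide, so these terms do not show that the sets acted alike.

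The wider neighbourhood is part of the Williams-Beuren region that is deleted in Williams syndrome. It held no other tested gene with a guide difference as large as that of CLDN4, which was chosen by that difference. Within 500 kb of the copy lie 23 genes; of the 19 that are no members, 15 were tested, 11 with log2 differences above 0 and 4 below, from -0.18 to 0.43, with a median of 0.05 against 0.0025 over all genes. None of these 15 passed the test (0.0% of all genes did), and 0 of 15 were higher with guide without overlap in both sets of libraries, against 8.8% of all genes. The nearest on the ABHD11 side, STX1A, the syntaxin 1A of synaptic vesicle fusion, had the highest value of them, 0.43 (SE 0.41), at 2.95 ± 1.21 against 2.19 ± 0.586 CPM (SD, n = 3 each).

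The next genes on that side were close between the groups: BUD23, a ribosomal RNA methyltransferase, had a log2 difference of -0.0063 (SE 0.12) and DNAJC30, a mitochondrial protein, 0.15 (SE 0.35). The bodies of BUD23, DNAJC30 and STX1A overlap, so pairs in the shared stretches are not in their counts. On the METTL27 side TMEM270 had 1 count with guide and 0 without, ELN, which encodes elastin, had 6 and 3, and both were too low to test. LIMK1, a kinase that acts on cofilin, had 0.10 (SE 0.13). In replicate 3, 5 of the 15 neighbours were higher and 6 lower, against 27.1% and 26.6% of all genes by edgeR's test, and their median log2 difference was -0.11.

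The claudin family shows where CLDN4, which was chosen by its guide difference, stands among its relatives. Of 24 claudins in the table, 9 were at 0 in every library and 6 passed the count filter: CLDN1, CLDN4, CLDN10, CLDN12, CLDN15 and CLDN18. None passed the guide test (0.0% of all genes did); 5 had log2 differences above 0 and 1 below, with a median of 0.11, and 50.9% of all genes were above 0. CLDN12, a claudin without the usual scaffold-binding end, was the most abundant at 54.4 ± 3.85 CPM with guide and 54.6 ± 2.68 without (SD, n = 3 each). CLDN15, a pore-forming claudin of the gut, stood at 18.9 ± 0.746 against 15.9 ± 0.287 CPM, a log2 difference of 0.25 (SE 0.13). CLDN18 stood at 3.71 ± 0.532 against 3.66 ± 0.115 CPM and CLDN1 at 2.79 ± 0.962 against 2.64 ± 1.618 CPM. Below the count filter, CLDN14 averaged 0.457 CPM with guide and 0.221 without, and CLDN7 0.318 and 0.122. CLDN14 and CLDN7 had only 40 and 29 counts in all. CLDN4, CLDN7, CLDN14 and the tested CLDN15 were higher with guide in each set of libraries, as 8.8% of all genes tested were. The other claudins, among them the tested CLDN1, CLDN10, CLDN12 and CLDN18, were not. In replicate 3, CLDN1 rose beside CLDN4, by a log2 of 1.10 (edgeR adjusted p = 0.00118), and these 2 of the 6 tested claudins were higher there, near the 27.1% of all genes.

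Partners of the claudins at the junction were close between the groups. Of 8 tested tight junction membrane proteins other than claudins, 5 had log2 differences above 0 and 3 below, with a median of 0.04; occludin, OCLN, stood at 24.2 ± 8.62 against 25.6 ± 5.82 CPM, and the adhesion molecule F11R at 18.3 ± 6.98 against 17.6 ± 6.48 CPM. Of 16 plaque and polarity genes, 10 were above 0 and 6 below with a median of 0.04, and the scaffold TJP1, also known as ZO-1, stood at 77.1 ± 10.4 against 77.8 ± 15.2 CPM. Of 10 adherens junction genes, 4 were above and 6 below with a median of -0.02; β-catenin, CTNNB1, stood at 375.0 ± 75.7 against 336.6 ± 94.6 CPM. None of the genes of these lists passed the test in either direction, as 0.0% of all genes did.

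No regulator of epithelial genes passed the guide test, as 0.0% of all genes did. Of 11 epithelial factors 5 were tested, 3 above 0 and 2 below with a median of 0.17. The Krüppel-like factor KLF5 stood at 38.5 ± 2.90 against 42.5 ± 8.21 CPM and the splicing factor ESRP2 at 25.96 ± 4.93 against 23.1 ± 2.695 CPM. Below the count filter, ELF3 stood at 0.613 ± 0.204 against 0.148 ± 0.150 CPM, with 47 counts in all. ELF3, ESRP1 and the tested ESRP2, GRHL1 and GRHL3 were higher with guide in each set of libraries, as 8.8% of all genes tested were. EHF, GRHL2, OVOL1, OVOL2 and the tested KLF4 and KLF5 were not. ESRP1 had only 19 counts in all. The 5 repressors had 3 above and 2 below with a median of 0.01; ZEB1 stood at 37.1 ± 7.88 against 41.2 ± 2.99 CPM and SNAI2 at 18.7 ± 4.77 against 20.7 ± 7.63 CPM. The repressors ranged from -0.15 to 0.72. In replicate 3, 2 of the 5 repressors were higher and 3 lower, against 27.1% and 26.6% of all genes by edgeR's test. SNAI2 fell by 0.88 and ZEB1 fell by 0.32 on the log2 scale, with edgeR adjusted p of 4.77e-05 and 0.0221; without TMM scaling ZEB1 was not called (-0.12, edgeR adjusted p = 0.373). TWIST1 rose by 0.25 (edgeR adjusted p = 0.0453), and SNAI1, named after its values were seen, rose by 2.17 (edgeR adjusted p = 0.000102).

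The genes that go with the other members by function or family likewise held none past the guide test (0.0% of all genes). Of 12 tested genes of lipoylation and the 2-oxoacid dehydrogenases, with which ABHD11 acts, 4 were above 0 and 8 below, with a median of -0.04; DLD, the shared dehydrogenase subunit, stood at 170.1 ± 4.72 against 168.8 ± 4.22 CPM, and DLST, the succinyltransferase of the 2-oxoglutarate complex, at 140.4 ± 6.48 against 136.2 ± 3.52 CPM. Of 16 ABHD family genes, 5 were above and 11 below with a median of -0.02, and of 23 METTL family genes 12 were above and 11 below with a median of 0.0053 and a range of -0.79 to 0.17. METTL3, the catalytic subunit of the mRNA adenosine methyltransferase, stood at 62.3 ± 7.04 against 57.9 ± 7.21 CPM. In replicate 3 the ABHD family, of which ABHD11 fell, had 6 of 16 genes higher and 1 lower, against 27.1% and 26.6% of all genes. The METTL family had 6 and 6 of 23, near those shares, and the lipoylation genes 1 and 4 of 12. Without TMM scaling these were 10 and 1, 13 and 2, and 4 and 1, so the balance of higher and lower depends on the scaling.

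The genes whose pattern over the 6 libraries was most like CLDN4 were found by the root mean square difference of log2(CPM + 0.1), centred on each gene. PHYHIPL and ESAM, an endothelial adhesion molecule, came nearest at 0.179, followed by EXTL1 at 0.187, a gene listed only by its identifier, ENSG00000206549, at 0.199 and RND1 at 0.221. ESAM ran at 2.25, 2.37 and 6.45 CPM with guide and 1.57, 0.856 and 2.31 without, so it was high in replicate 3 with guide as CLDN4 was. RND1 ran at 2.99, 3.49 and 9.58 CPM with guide and 2.24, 1.71 and 3.34 without. Since likeness includes the guide contrast, these values describe and test nothing. None of the 5 lies on chromosome 7. METTL27 ranked 1004 of 13006 genes at 0.535 and ABHD11 12120 at 0.967, on either side of the median of 0.728.

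Few SVA_D copies lie as near to the annotated 5′ end of a protein-coding gene. Of 1457 SVA_D copies on chromosomes with genes in the annotation, 26 lie at least as near to the annotated 5′ end of a protein-coding gene body as this copy does to CLDN4. Only 3 of these 26 had enough counts to be tested, and 0 were called, against 17.5% of all tested copies higher. Their summed counts were 387 with guide and 325 without, and single copies cannot be told apart where read pairs align to several of them.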

How the data were processed

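RNA was measured in 6 HEK293T libraries. Per the submitters' processing notes, the authors used FastQC 0.11.8, STAR 2.7.0e and featureCounts 2.0.0. The deposited values are raw counts of read pairs; per the file headers they were made without strand over whole bodies of Ensembl 97 protein-coding genes, introns included. Per the file headers, SVA_D copies were counted with multi-mapping pairs added at each alignment. The repeat subfamily tables were not used here.

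Counts were fitted with edgeR 4.0.16 in R 4.3.3 (TMM scaling, filterByExpr with a minimum count of 10, quasi-likelihood test, Benjamini-Hochberg adjustment over all tested genes, threshold 0.05), on all 6 libraries. Copies were scaled by the library sizes of the gene table. CPM is the count per 1000000 of the TMM-scaled gene total. The script was tested on simulated data. Intervals and limits, including the limit of 3 counts, cover counting error only. Symbols came from the symbol table for 19887 identifiers and from GENCODE 29 for 93.

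The members and gene lists were chosen with earlier results of these data known. Named genes were the members, the 3 nearest genes on each side and the 5 genes most like CLDN4. Of each list, up to 4 genes by highest mean CPM were named. List members named for a call in replicate 3 come from the same sets. CLDN7, CLDN14, GRHL3 and the epithelial factors below the count filter were added after their values were seen. Same-numbered libraries of the groups deviated together, with correlations of 0.559, 0.705 and 0.864 across 13007 genes for replicates 1, 2 and 3, each above the 0.1 set for taking numbers as pairs. Unmatched numbers of replicates 1 and 2 correlated as much (0.642 and 0.707), so the check separates replicate 3 from the others and not replicate 1 from replicate 2. Alternatives were DESeq2 1.42.0, DESeq2's size factors, no TMM scaling, copy library sizes, no count filter, the replicate 3 libraries as a covariate, replicates 1 and 2 only, a replicate block and leaving out each library.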

Additional observations from a re-analysis of the deposited data

How the results depend on the processing

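All values here are log2 differences or counts of calls. Of the alternative values, 132 were classed as unchanged, 6 differences changed sign and 4 counts of calls moved. A further 2 differences came to pass the threshold and 2 no longer did. For a difference, unchanged means the same direction and side of the threshold. For a count of calls it allowed some change, as with 9 to 13 copies higher with single libraries left out, against 11. With the replicate block the guide differences were 1.04 for CLDN4, -0.07 for METTL27 and -0.10 for ABHD11, with 0 genes and 11 copies called, and the block changed no call. The METTL27 guide difference changed sign with replicates 1 and 2 only (0.20), without replicate 1 with guide (0.021) and without replicate 3 without guide (0.34); its range over single libraries left out was -0.38 to 0.34. The ABHD11 guide difference changed sign without replicate 1 without guide (0.022), in a range of -0.38 to 0.022. For CLDN4 that range was 0.61 to 1.497. The CLDN4 interaction was -0.059 without TMM scaling and -0.012 without the count filter. Without TMM scaling, 5317 genes were higher and 1759 lower in replicate 3, against 3530 and 3454 with it; the median of all genes shifted by 0.20. METTL27 passed there at 0.86, as it did without the count filter at 0.64 (edgeR adjusted p = 0.0188 and 0.0483). CLDN4 and ABHD11 kept their directions in replicate 3 without TMM scaling, at 1.22 and -0.47. Leaving out single libraries gave 0.91 to 1.13 for CLDN4 in replicate 3, with loss of the call at 1.02 and 1.03 when either replicate 3 library was left out. The interaction called 14 genes higher and 45 lower without the count filter. The cause of these changes was not tested. Depth limits CLDN3 and the copy, which had 4 and 3 counts in all.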
